A study of Mus musculus with 12 samples.

Results

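Matrix metalloproteinases (MMPs) are zinc-dependent proteases that cut collagens, laminins, proteoglycans and cell-surface proteins, and the tissue inhibitors of metalloproteinases (TIMPs) bind their active site and block them. Some MMPs are secreted, among them the gelatinases Mmp2 and Mmp9, which degrade the type IV collagen of basement membranes, and others are anchored in the cell membrane. In the retina these enzymes and inhibitors are known from Mueller glia, vessels, the pigment epithelium and the matrix around photoreceptors, and mutations of human TIMP3 cause Sorsby fundus dystrophy. The genes described here are 10 of the 32867 genes in the deposited table, chosen by name: the 4 inhibitors Timp1, Timp2, Timp3 and Timp4, the 2 gelatinases Mmp2 and Mmp9, and the 4 membrane-type enzymes Mmp14, Mmp15, Mmp16 and Mmp24.

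The data are ribosomal-RNA-depleted RNA sequencing of mouse retina, 12 libraries in 4 groups of 3. The C3H group is the wild type, with 1 library each from postnatal days 13, 23 and 29. The Pde6b rd1 group (day 13) and the Pde6b rd10 group (day 23) carry mutations in the rod phosphodiesterase gene Pde6b, which abolish the protein in rd1 and reduce its activity in rd10. The Prph rd2 group (day 29) carries a mutation of Prph2, a protein that rods need to form outer segments. The study took each model at its peak of photoreceptor death, from animals of either sex. Its methods give a C57Bl6/J background for rd10 and C3H for the other groups, while the sample labels give C57BL6/J for rd2 as well. Each model was sampled at 1 age, so genotype and age cannot be told apart, and neither can strain in rd10 and, by the labels, in rd2. The labels do not say that libraries of a group came from separate animals, and the p-values measure only the spread between these libraries.

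The libraries held 17049495 to 24755890 counts on genes. Pde6b itself had 57.1 ± 0.47 FPKM (SD, n = 3) in rd1 against 243 ± 1.97 in C3H, and Prph2 had 453 ± 30.5 FPKM in rd2 against 924 ± 46.4 in C3H. FPKM is the number of reads per kilobase of gene scaled to the library's total, so it allows levels of different genes to be compared. The summed level of 9 rod markers was 5698 to 5873 FPKM in C3H, 3036 to 3057 in rd1, 3830 to 4143 in rd2 and 4764 to 4958 in rd10. Retina is a mixture of cell types, and in such bulk libraries a change in the number of cells of a type cannot be told apart from a change in RNA per cell. Xist, the RNA made from the inactive X chromosome of female cells, was at 0.0209 to 0.0281 FPKM in C3H, 212 to 223 in rd1, 86.6 to 109 in rd2 and 40.0 to 45.0 in rd10. By this marker the sex of the animals behind the libraries differed between the groups.

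The start regions of the 3 inhibitors that passed the calling rule against C3H are shown. They were taken from the RefSeq table (GRCm38.p6), which held 7 of the 10 members and no entry for Mmp2, Mmp9 and Mmp16. Each runs 5′ to 3′ on the gene's own strand and ends at the base before the gene, and capitals mark a GC box (GGGCGG on either strand), a short element common in promoters.
Timp1, chrX:20869916-20870165, plus strand: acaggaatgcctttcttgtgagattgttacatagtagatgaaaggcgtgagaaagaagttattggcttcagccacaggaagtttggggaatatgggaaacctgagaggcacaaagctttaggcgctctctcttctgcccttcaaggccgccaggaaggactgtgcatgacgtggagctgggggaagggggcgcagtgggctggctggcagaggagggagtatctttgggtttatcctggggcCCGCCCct
Timp3, chr10:86300162-86300371, plus strand: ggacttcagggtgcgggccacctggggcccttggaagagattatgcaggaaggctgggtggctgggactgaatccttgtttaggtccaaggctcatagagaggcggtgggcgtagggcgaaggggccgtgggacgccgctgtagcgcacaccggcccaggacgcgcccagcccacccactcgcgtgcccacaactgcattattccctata
Timp4, chr6:115252206-115252455, minus strand: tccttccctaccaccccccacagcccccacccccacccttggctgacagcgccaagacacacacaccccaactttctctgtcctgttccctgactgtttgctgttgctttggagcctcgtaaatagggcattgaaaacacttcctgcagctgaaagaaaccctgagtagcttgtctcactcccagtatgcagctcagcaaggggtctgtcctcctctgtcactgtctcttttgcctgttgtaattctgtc

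In the 250 bases before the RefSeq start, a GC box was found in 6 of the 7 members with an entry, and in 32.7% of all 32851 promoters in the table. Timp4 was the member without one. In Timp3 the GC box lies in the 40 bases before the RefSeq start that GENCODE assigns to the gene, which are not printed. None of the 7 held TGANTCA, the letters of the AP-1 element, found in 6.75% of all promoters, or TTCNNNGAA, those of the STAT element, found in 7.02%. These are matches of letters in a short window and say nothing about binding.

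The inhibitors come first. Timp1 is the inducible member of the family, a secreted inhibitor known to rise in reactive astrocytes and after tissue injury. Timp1 was at 0.0567, 0.281 and 0.227 FPKM in the 3 C3H libraries and at 0.464, 0.462 and 0.701 in rd1. It was at 0.333, 0.0941 and 0.139 FPKM in rd2 and at 11.4, 9.56 and 9.68 in rd10. All 3 rd10 libraries lay far above every other library. The counts behind these levels were 1, 6 and 4 in C3H, 9, 7 and 12 in rd1, 7, 2 and 3 in rd2, and 251, 159 and 172 in rd10, so outside rd10 the level of Timp1 rests on few reads.

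Timp1 was higher in rd10 than in C3H by 5.62 on the log2 scale (SE 0.25), which is 49.3-fold, with an adjusted p of 1.09e-13. A gene was called where the unadjusted p of edgeR's quasi-likelihood test was under 0.05 and the fold change at least 1.5, which follows the thresholds of the study, and the Benjamini-Hochberg adjusted p over all tested genes is given beside it. In the separate fits of rd1 and of rd2 against C3H, Timp1 did not pass the filter on low counts and was not tested. It passed in fits with rd10 only through the rd10 libraries, where it was high. The FPKM of the 3 rd1 libraries did not overlap those of C3H or of rd2, on 28 counts in rd1, 11 in C3H and 12 in rd2. Timp1 lies on the X chromosome (chrX:20870166-20874735, plus strand, GRCm38). Xist was lowest in C3H and highest in rd1, so by this marker sex differed along with the groups. The part of sex in the result for Timp1 was not tested and cannot be told apart from that of the group.

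Timp2 is the constitutive inhibitor of the family and also the partner with which Mmp14 activates pro-Mmp2 at the cell surface. Timp2 was at 28.8, 30.2 and 28.5 FPKM in C3H and at 26.6, 25.1 and 26.0 in rd1. It was at 29.9, 29.2 and 28.3 in rd2 and at 38.5, 40.4 and 38.2 in rd10. It was the member with the highest level in every library, and its rd1 libraries lay below and its rd10 libraries above all others. The differences from C3H were 0.36 (SE 0.04, adjusted p = 3.69e-07) in rd10 and -0.24 (SE 0.04, adjusted p = 1.70e-05) in rd1, both under the 1.5-fold threshold. In rd2 the difference was -0.03 (adjusted p = 0.735).

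Timp3 is the inhibitor that stays bound to the extracellular matrix and that also inhibits ADAM proteases. Timp3 was at 10.9, 10.8 and 10.9 FPKM in C3H and at 7.24, 7.30 and 7.07 in rd1. It was at 12.2, 11.4 and 12.7 in rd2 and at 18.01, 17.86 and 19.30 in rd10. The 4 groups did not overlap, in the order rd1, C3H, rd2 and rd10. Timp3 fell by 0.67 on the log2 scale in rd1 against C3H (SE 0.04, adjusted p = 2.86e-12) and rose by 0.70 in rd10 (SE 0.04, adjusted p = 1.76e-11). The difference in rd2 was 0.12 (SE 0.05), with an unadjusted p of 0.0402 from edgeR's quasi-likelihood test and an adjusted p of 0.184.

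Timp4 is an inhibitor known mainly from heart, vessels and brain. Timp4 was at 0.205, 0.268 and 0.240 FPKM in C3H and at 0.186, 0.159 and 0.114 in rd1. It was at 0.115, 0.305 and 0.189 in rd2 and at 0.1097, 0.172 and 0.144 in rd10. With 13 to 43 counts per library it was the least abundant member by mean FPKM in rd1 and rd10, and the rd2 libraries spanned nearly the whole range of the other groups. It was called lower in rd1 by -0.70 (SE 0.29), with an adjusted p of 0.0524, and in rd10 by -0.83 (SE 0.28), with an adjusted p of 0.0155. The rd1 call was lost without rd1 replicate 3 (-0.53), without C3H replicate 2 (-0.61), against the day 13 C3H library alone (-0.49) and with DESeq2 (-0.70), and the rd10 call without rd10 replicate 1 (-0.65). Neither call was made by limma on the FPKM values.

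**Figure D1:**
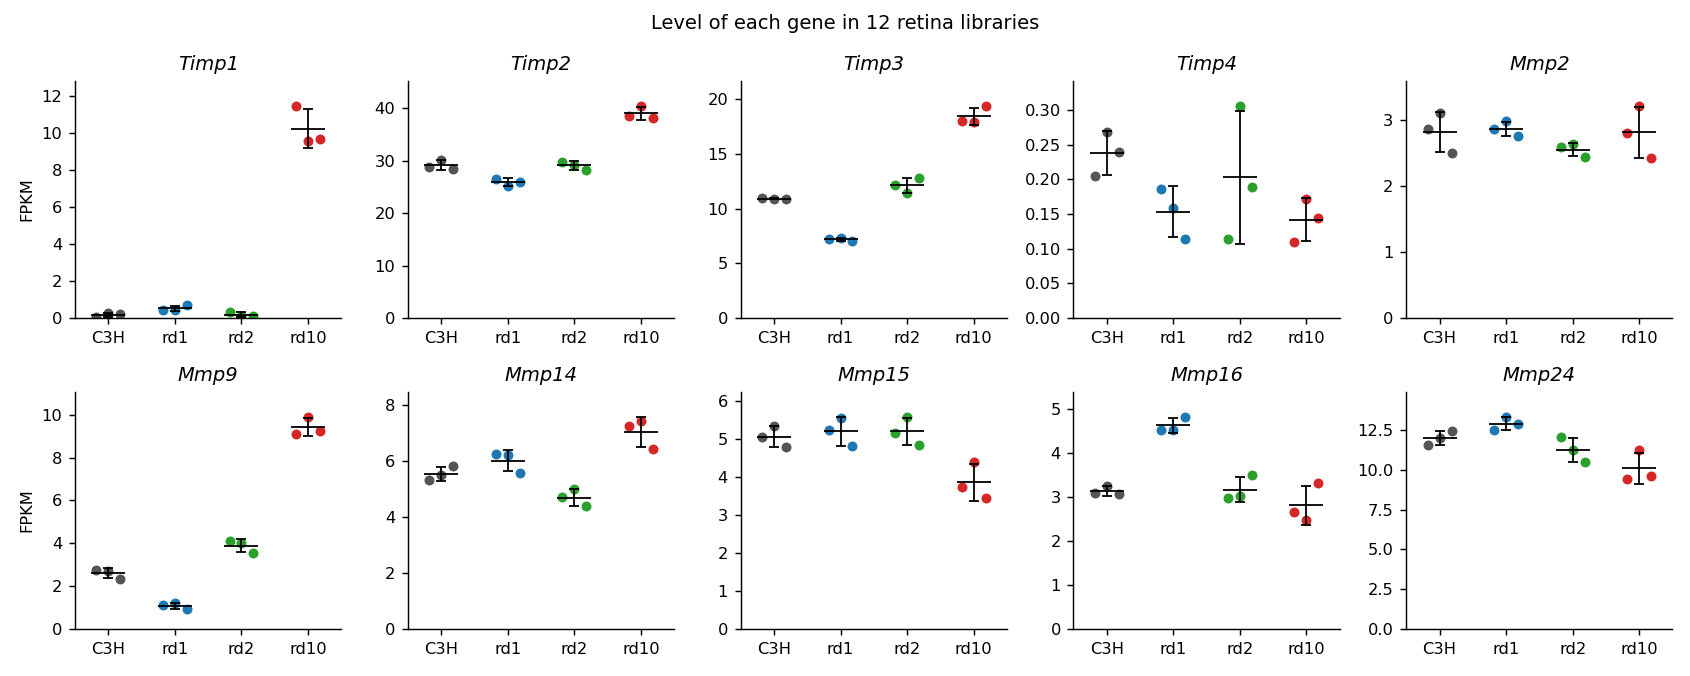
Level of each of the 10 genes in FPKM (vertical axis, from 0, a scale of its own for each gene) in the 3 libraries of each group (points), with the group mean and SD (bars). Timp1 reaches 9.56 to 11.4 FPKM in rd10 and at most 0.701 elsewhere, while Timp3 and Mmp9 take the order rd1, C3H, rd2, rd10.

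The gelatinases differed from each other. Mmp9 is the inducible gelatinase, which many tissues make on inflammation or injury and neutrophils store ready-made. Mmp9 was at 2.76, 2.70 and 2.32 FPKM in C3H and at 1.11, 1.21 and 0.924 in rd1. It was at 4.08, 4.01 and 3.54 in rd2 and at 9.10, 9.89 and 9.24 in rd10. As for Timp3, the 4 groups did not overlap and lay in the order rd1, C3H, rd2 and rd10. Mmp9 fell by 1.34 on the log2 scale in rd1 against C3H (SE 0.13, adjusted p = 7.66e-09), a 2.53-fold change. It rose by 1.80 in rd10 (SE 0.08, adjusted p = 9.74e-14), a 3.48-fold change. In rd2 it differed by 0.55 (SE 0.10, adjusted p = 0.00295), which at 1.46-fold stayed just under the fold threshold.

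Mmp2 is the gelatinase made constitutively by many cells and activated at the cell surface. Mmp2 was at 2.85, 3.10 and 2.50 FPKM in C3H and at 2.85, 2.98 and 2.76 in rd1. It was at 2.58, 2.63 and 2.43 in rd2 and at 2.80, 3.20 and 2.42 in rd10. The groups overlapped, except that the rd1 libraries lay above those of rd2. The differences from C3H were -0.06 (SE 0.10) in rd1, -0.07 (SE 0.11) in rd10 and -0.18 (SE 0.11) in rd2, with adjusted p of 0.682, 0.639 and 0.330.

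Among the membrane-type enzymes no member was called against C3H in any model. Mmp14, the collagenase at the cell surface that activates pro-Mmp2, was at 5.32, 5.50 and 5.82 FPKM in C3H and at 6.24, 6.20 and 5.58 in rd1. It was at 4.69, 4.98 and 4.38 in rd2 and at 7.24, 7.43 and 6.43 in rd10. Its rd2 libraries lay below and its rd10 libraries above all others, with differences from C3H of -0.27 (SE 0.07, adjusted p = 0.0201) and 0.29 (SE 0.07, adjusted p = 0.000830). In rd1 the difference was 0.04 (SE 0.06).

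Mmp15, a close relative of Mmp14, was at 5.05, 5.33 and 4.78 FPKM in C3H and at 5.23, 5.54 and 4.80 in rd1. It was at 5.16, 5.57 and 4.85 in rd2 and at 3.74, 4.37 and 3.44 in rd10. The rd10 libraries lay below all others, and the other groups overlapped. The difference from C3H was -0.45 (SE 0.08, adjusted p = 8.39e-05) in rd10, -0.04 (SE 0.06) in rd1 and 0.01 (SE 0.07) in rd2.

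Mmp16, another enzyme of the same class found in brain, was at 3.08, 3.25 and 3.06 FPKM in C3H and at 4.53, 4.53 and 4.81 in rd1. It was at 2.96, 3.03 and 3.49 in rd2 and at 2.65, 2.47 and 3.30 in rd10. Its rd1 libraries lay above all others, with a difference from C3H of 0.49 (SE 0.06, adjusted p = 2.02e-07), a 1.40-fold change. In rd10 the difference was -0.21 (SE 0.08, adjusted p = 0.0369) and in rd2 -0.02 (SE 0.08).

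Mmp24, a membrane-type enzyme found mainly in neurons, where it cuts cadherins, was at 11.55, 11.98 and 12.42 FPKM in C3H and at 12.51, 13.30 and 12.86 in rd1. It was at 12.04, 11.22 and 10.50 in rd2 and at 9.42, 11.2 and 9.61 in rd10. It was the most abundant protease of the 6. It differed from C3H by -0.31 (SE 0.06, adjusted p = 0.000328) in rd10, by -0.12 (SE 0.06, adjusted p = 0.254) in rd2 and by 0.03 (SE 0.05) in rd1.

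In sum over the members, 3 of the 9 tested were called in rd1 against C3H, all lower, where 15% of the 18310 tested genes were called, 8.98% higher and 6.03% lower. In rd10, 4 of the 10 were called, Timp1, Timp3 and Mmp9 higher and Timp4 lower, where 23.9% of the 18704 tested genes were called, 15.9% higher and 8.08% lower. Without Timp1, 3 of 9 were. In rd2 none of the 9 tested was called, where 4.57% of the 18581 tested genes were, 2.68% higher and 1.89% lower. In rd2 Timp3, Mmp9 and Mmp14 had an unadjusted p under 0.05 in edgeR's quasi-likelihood test, and DESeq2 and limma also called 0 members. Without the fold threshold, 4 members in rd1, 9 in rd10 and 2 in rd2 had an adjusted p under 0.05 in edgeR's test, where 43.2%, 54.1% and 9.7% of all tested genes did, so the share in rd1 was that of all genes. The 3 comparisons share the same C3H libraries. Against only the C3H library of the same day, Mmp9 differed by -1.43 in rd1, 1.74 in rd10 and 0.70 in rd2, the last now past the threshold, and Timp3 by -0.68, 0.71 and 0.12.

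**Figure D2:**
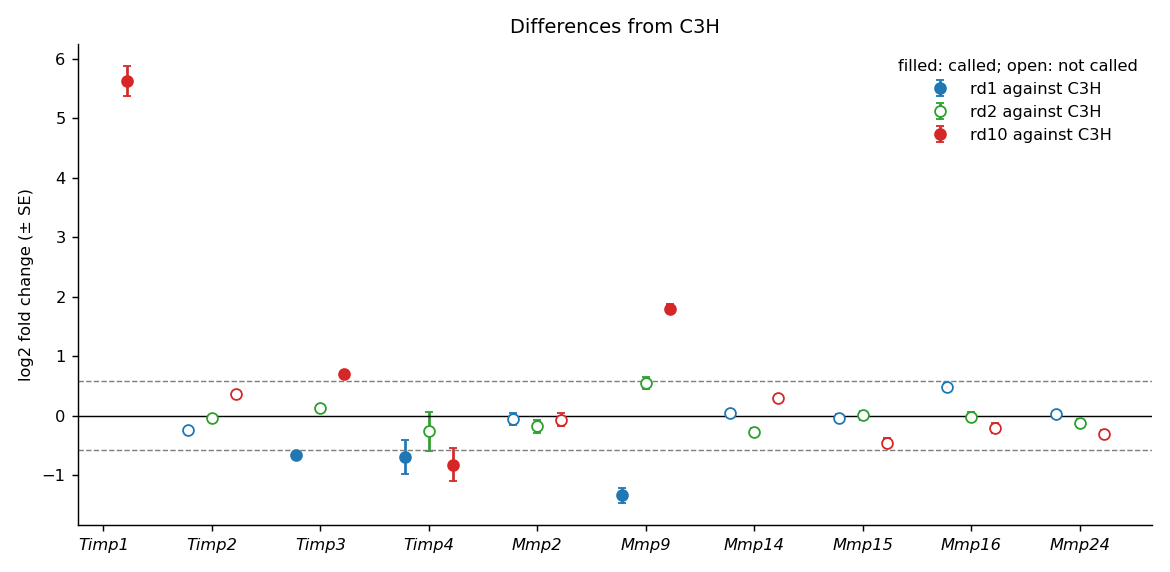
Difference of each model from C3H for the 10 genes (vertical axis, log2 fold change with its SE, from edgeR), filled where called and open where not, with dashed lines at a 1.5-fold change. Mmp9 lies at -1.34 in rd1, 0.55 in rd2 and 1.80 in rd10, and Timp1 has a point for rd10 only, at 5.62.

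The models were then compared with one another in the fit of all 12 libraries, which asks whether the genes differ between forms of degeneration. Without the fold threshold, an adjusted p under 0.05 was reached by 57.2% of the 19616 tested genes between rd10 and rd1, 43.9% between rd10 and rd2, and 39.8% between rd1 and rd2. Between rd10 and rd1, 5 of 10 members were called, or 4 of 9 without Timp1, where 28.8% of all tested genes were. Timp1 (4.27, SE 0.25), Mmp9 (3.16, SE 0.10), Timp3 (1.40, SE 0.05) and Timp2 (0.64, SE 0.04) were higher in rd10, and Mmp16 (-0.68, SE 0.09) was lower, with adjusted p of 1.21e-06 for Mmp16 and lower values for the others. Mmp9 thus differed 8.97-fold between these 2 models with mutations in the same gene, which were sampled at days 13 and 23 and on different strains.

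Between rd10 and rd2, 2 members were called, or 1 of 9 without Timp1, where 19.7% of the 19616 tested genes were. These were Timp1 (5.70, SE 0.28, adjusted p = 1.39e-12) and Mmp9 (1.26, SE 0.08, adjusted p = 8.54e-11). Timp3 (0.58, SE 0.05, adjusted p = 2.92e-09) and Mmp14 (0.57, SE 0.07, adjusted p = 9.55e-07) were higher in rd10 by 1.497- and 1.481-fold and fell just short of the fold threshold, so the count changed with the libraries used: it was 4 without rd2 replicate 1.

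Between rd1 and rd2, 3 members were called, or 2 of 9 without Timp1, where 16.9% of the 19616 tested genes were. Mmp9 (-1.91, SE 0.11, adjusted p = 2.95e-11) and Timp3 (-0.81, SE 0.05, adjusted p = 8.94e-11) were lower in rd1, and Timp1 (1.43, SE 0.47, adjusted p = 0.0211) was called higher. Timp1 entered this test only because of its level in the rd10 libraries, was not tested in a fit of rd1 and rd2 alone, and lost the call with limma on log2(FPKM + 1), at 0.38. Mmp2 was called in none of the 6 comparisons, and neither were Mmp14, Mmp15 and Mmp24.

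Summed over the family, the 4 inhibitors together had 40.5 ± 0.98 FPKM in C3H, 33.8 ± 0.72 in rd1, 41.6 ± 0.77 in rd2 and 67.8 ± 0.39 in rd10 (SD, n = 3 each). The 6 enzymes together had 31.1 ± 0.65 in C3H, 32.7 ± 1.03 in rd1, 30.7 ± 1.32 in rd2 and 36.0 ± 2.26 in rd10. The ratio of inhibitor to enzyme transcripts among these members was therefore 1.30 ± 0.009 in C3H, 1.04 ± 0.050 in rd1, 1.36 ± 0.056 in rd2 and 1.89 ± 0.11 in rd10. The rd1 libraries lay below and the rd10 libraries above all others. Within the enzymes, the gelatinases made up 5.41 ± 0.52 FPKM in C3H, 3.94 ± 0.25 in rd1, 6.43 ± 0.39 in rd2 and 12.2 ± 0.77 in rd10. The membrane-type sum ranged from 22.8 to 29.6 over all 12 libraries. It was 28.0 to 29.6 in rd1, above all other libraries, and 25.0 to 26.1 in C3H. Timp2 made up 72.1 ± 0.52% of the inhibitor sum in C3H and 57.6 ± 1.57% in rd10. These are transcript levels, and no test was made on the sums. The enzyme sum leaves out other expressed MMP genes, so the ratio holds for the members and not for all MMPs. Among those left out, Mmp17 was at 5.21 FPKM in C3H, 4.98 in rd1, 5.62 in rd2 and 3.95 in rd10. Mmp11 was at 1.82 in C3H and 1.52 in rd10, and Mmp28 at 1.74 and 1.02.

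**Figure D3:**
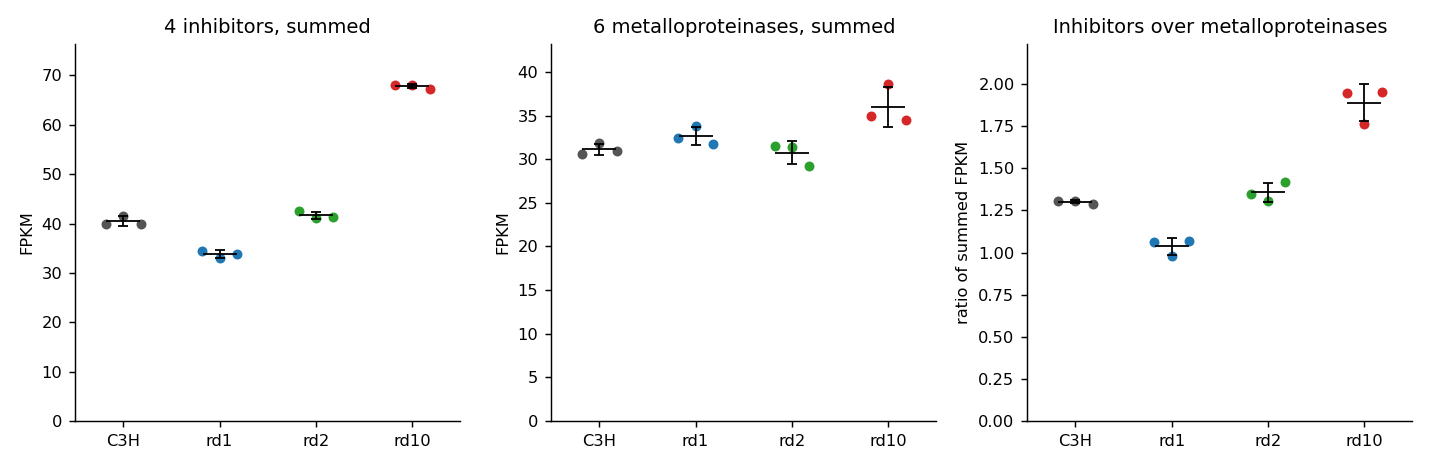
Summed FPKM of the 4 inhibitors (left), of the 6 metalloproteinases (middle) and the ratio of the sums (right) in each library (points), with group mean and SD (bars), all axes from 0. The inhibitor sum reaches 67.4 to 68.1 FPKM in rd10 against 39.9 to 41.6 in C3H, and the enzyme sum 34.4 to 38.6 against 30.6 to 31.9.

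By mean FPKM in C3H the members stood in the order Timp2 (29.2), Mmp24 (11.98), Timp3 (10.9), Mmp14 (5.54), Mmp15 (5.05), Mmp16 (3.13), Mmp2 (2.82), Mmp9 (2.60), Timp4 (0.238) and Timp1 (0.188). The ranges of Mmp14 and Mmp15, of Mmp16 and Mmp2, of Mmp2 and Mmp9, and of Timp4 and Timp1 overlapped, so their order within each pair is not set. In rd10 the order became Timp2 (39.1), Timp3 (18.4), Timp1 (10.2), Mmp24 (10.1), Mmp9 (9.41), Mmp14 (7.03), Mmp15 (3.85), Mmp16 (2.81), Mmp2 (2.81) and Timp4 (0.142). Timp1, with Timp4 below every other member in C3H, moved to a level whose range overlapped those of Mmp24 and Mmp9, and Timp3 moved above Mmp24.

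Across the 12 libraries the log2 CPM (counts scaled to library size) of Mmp9 and Timp3 had a Pearson r of 0.986, and Timp2 had an r of 0.950 with Timp3 and of 0.952 with Mmp9. Mmp16 ran the other way, with an r of -0.885 with Mmp9. These values describe 12 points in 4 groups whose differences set them, and the points share their libraries and depth. Among 19615 genes, the 3 most like Mmp9 were Jade2 (0.996), Clu (0.996) and Dlgap1 (0.994), of which Clu encodes the secreted chaperone clusterin and was on the list of Mueller glia markers. The 3 most like Timp3 were St8sia1 (0.994), a ganglioside sialyltransferase, Il33 (0.993), an alarmin cytokine, and Frmpd4 (0.992). For Timp1 they were Gnb3, Btrc and C430019N01Rik (each 0.985), and here the 3 rd10 libraries stand apart from the other 9. Those most like Timp4 reached 0.903 (B130046B21Rik), 0.902 (Gm45236) and 0.894 (4921516A02Rik).

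**Figure D4:**
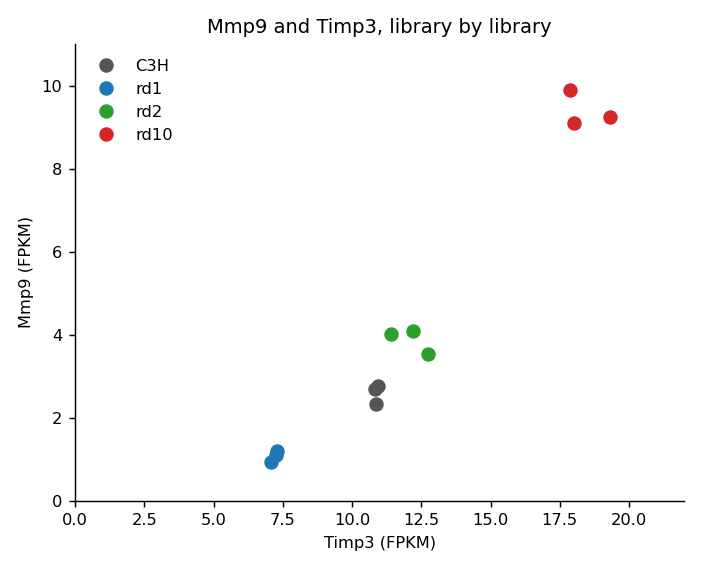
Mmp9 (vertical axis, FPKM) against Timp3 (horizontal axis, FPKM) in the 12 libraries, coloured by group, both axes from 0. The rd1 libraries lie at 7.07 to 7.30 FPKM of Timp3 and 0.924 to 1.21 of Mmp9, and the rd10 libraries at 17.9 to 19.3 and 9.10 to 9.89.

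The other genes of the pathway were described by lists chosen for their function. Of 17 further MMP genes, 14 were in the table and 5 had enough counts to be tested. In rd10 Mmp19 was higher (2.02, SE 0.35, adjusted p = 5.39e-05), and Mmp28 (-0.83, SE 0.14, adjusted p = 4.12e-05) and Mmp25 (-0.61, SE 0.29, adjusted p = 0.0848) were called lower, while none of the 5 was called in rd1 or rd2, by edgeR, DESeq2 or limma, or had an unadjusted p under 0.05 there. Even in rd10 Mmp19 reached only 0.423 to 0.552 FPKM, far below Mmp9. The list median was -0.14 in rd1, -0.46 in rd10 and -0.01 in rd2, beside -0.0109, -0.00248 and -0.00125 for all tested genes. Of all tested genes, 15% were called in rd1, 23.9% in rd10 and 4.57% in rd2.

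Of the 19 tested ADAM and ADAMTS proteases, relatives that shed surface proteins or cut proteoglycans, 1 was called higher and 2 lower in rd1, 5 higher and 3 lower in rd10, and 1 higher in rd2. The list medians were -0.02, 0.30 and -0.07. As for the members, 15%, 23.9% and 4.57% of all tested genes were called in rd1, rd10 and rd2, and the shares of the list in rd1 and rd2 were close to these. The aggrecanase Adamts5 was called in all 3: at 4.66 ± 0.37 FPKM in C3H, it was lower in rd1 (2.11 ± 0.24, log2 difference -1.22, SE 0.07, adjusted p = 1.13e-12) and higher in rd2 (7.82 ± 0.39, 0.71, SE 0.07, adjusted p = 6.57e-06) and rd10 (11.4 ± 0.30, 1.23, SE 0.05, adjusted p = 4.74e-14). Its group means thus took the same order as those of Mmp9 and Timp3, an order whose share over all genes was not counted. In rd1 Adamts2 was lower (-0.90, adjusted p = 0.00309) and Adamts4 higher (0.61, adjusted p = 0.0124). In rd10 Adamts1 (1.72) and Adamts4 (2.21) were higher and Adamts18 (-0.76) lower, each with an adjusted p of 4.09e-08 or less.

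The plasminogen system makes plasmin, which activates several pro-MMPs. In rd10, 15.9% of all tested genes were higher and 8.08% lower. Of the 8 tested genes of this system, 5 were higher and none lower. Plau and Plaur among them passed the filter on low counts only in rd10, and of the 6 genes tested in all models 3 were higher, with a median of 0.60. The genes called were the activators Plau (3.03, SE 0.30) and Plat (1.37, SE 0.07), the receptor Plaur (2.92, SE 0.35), and Anxa2 (1.08, SE 0.08) and S100a10 (1.47, SE 0.08), which together bind plasminogen at the cell surface. Plat was at 5.07 ± 0.077 FPKM in rd10 against 1.89 ± 0.055 in C3H. None of the 6 tested was called in rd1 or in rd2 by edgeR, DESeq2 or limma, with medians of -0.20 and -0.17, although 4 and 3 of them had an unadjusted p under 0.05 in edgeR's test. Over all tested genes, 15% and 4.57% were called. An adjusted p under 0.05 was reached by 3 of the 6 in rd1 and 0 in rd2, and by 43.2% and 9.7% of all tested genes. Plg, which encodes plasminogen itself, had at most 6 counts in any library.

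Of 14 other inhibitors, activators and clearance receptors, none was higher and 1 lower in rd1, 4 were higher and 1 lower in rd10, and none was called in rd2. Over all tested genes, 8.98% were higher and 6.03% lower in rd1, 15.9% and 8.08% in rd10, and 4.57% were called in rd2. In rd2 6 of the 14 had an unadjusted p under 0.05 in edgeR's test, and DESeq2 and limma also called 0. There 3 of the 14 had an adjusted p under 0.05, as did 9.7% of all tested genes. The medians were -0.14, 0.08 and 0.14. The broad protease inhibitor A2m stood out in rd10 at 21.5 ± 0.30 FPKM against 0.908 ± 0.086 in C3H (4.52, SE 0.06, adjusted p = 7.33e-22). Cldn1 (2.53) and Efemp1 (1.39), a matrix protein that binds Timp3, were higher in rd10, and the proprotein convertase Pcsk5 (-1.30) was lower. Efemp1 was also the gene called in rd1, where it was lower (-0.77, SE 0.09, adjusted p = 2.70e-07). Reck, the membrane-anchored MMP inhibitor, was not called in rd10 (-0.13, SE 0.07, adjusted p = 0.163), and neither was Lrp1, the receptor that clears MMPs and TIMPs (0.50, SE 0.04, adjusted p = 1.79e-09).

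Of the 29 tested matrix and surface substrates, 1 was higher and 6 lower in rd1, 7 were higher and 8 lower in rd10, and none was called in rd2. Over all tested genes, 8.98% were higher and 6.03% lower in rd1, 15.9% and 8.08% in rd10, and 4.57% were called in rd2. In rd2 16 substrates had an unadjusted p under 0.05 in edgeR's test, and DESeq2 and limma also called 0. There 9 substrates had an adjusted p under 0.05, as did 9.7% of all tested genes. The medians were -0.20, -0.10 and -0.11. In rd1 the basement membrane collagens Col4a4 (-1.97, SE 0.15) and Col4a3 (-1.59, SE 0.13), elastin Eln (-0.99, SE 0.07) and the hyaluronan receptor Cd44 (-0.73, SE 0.07) were lower, each with an adjusted p of 2.42e-08 or less. In rd10 Spp1 (osteopontin; 3.21, SE 0.12), Cd44 (2.51, SE 0.06), Vcan (versican; 2.40, SE 0.09) and Col18a1 (1.53, SE 0.06) were higher. Cd44 rose to 20.1 ± 1.21 FPKM in rd10 from 3.39 ± 0.16 in C3H.

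Markers of several cell types moved with these genes, and their part in the results was not tested. In rd10 all 10 genes of the glial reactivity list were higher than in C3H, where 15.9% of all tested genes were. Edn2 and Lif had at most 6 and 18 counts in any library outside rd10 and passed the filter on low counts only through rd10. The other 8 had enough counts to be tested in rd1 and rd2 too. The list summed to 321 to 341 FPKM in rd10 against 21.8 to 24.6 in C3H, 23.5 to 23.7 in rd1 and 22.3 to 24.8 in rd2. Gfap, the intermediate filament of reactive glia, was at 79.3 to 87.0 FPKM in rd10 and 8.47 to 8.96 in C3H. Of the 10 microglia markers 9 were higher in rd10, with sums of 117 to 128 FPKM against 43.4 to 44.4 in C3H. The microglia sums were 42.5 to 44.3 FPKM in rd1 and 39.7 to 42.3 in rd2. In both lists the rd10 sums lay above all others, and the rd1 sums overlapped those of C3H.

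The 10 Mueller glia markers summed to 592 to 602 FPKM in rd1, 1053 to 1087 in C3H, 1145 to 1214 in rd2 and 1249 to 1336 in rd10, with 5 called lower in rd1, and 3 higher and 1 lower in rd10. Of all tested genes, 8.98% were higher and 6.03% lower in rd1, and 15.9% and 8.08% in rd10. The sum took the order of Mmp9 and Timp3, but by group mean only 4 of the 10 markers did, Aqp4, Dkk3, Apoe and Clu. How many of all genes take this order was not counted. Glul, which did not take it, was the largest part of the sum, at 528 FPKM in C3H and 192 in rd1. In rd10 Clu (1.73), Apoe (1.28) and Vim (0.76) were higher than in C3H and Slc1a3 (-0.76) was lower, while Glul (-0.35), Rlbp1 (-0.38) and Kcnj10 (-0.15) had negative differences under the fold threshold. Pigment epithelium markers, from a tissue known to make Timp3, summed to 16.9 to 19.4 FPKM in rd1 against 27.2 to 29.9 in C3H, 27.3 to 28.4 in rd2 and 30.0 to 31.9 in rd10, with 5 of 9 tested called lower in rd1. Pericyte markers summed to 34.9 to 36.1 FPKM in rd1 against 48.7 to 51.5 in C3H, 46.8 to 50.8 in rd2 and 49.3 to 52.7 in rd10.

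Neutrophils are a known store of Mmp9 protein. The 7 neutrophil markers in the table summed to 0.0599 to 0.170 FPKM in C3H, 0.200 to 0.489 in rd1, 0.302 to 0.501 in rd2 and 1.35 to 2.05 in rd10, and none had enough counts to be tested. In rd10 S100a8 had 6 to 11 counts, S100a9 6 to 8 and Retnlg 3 to 7, against at most 2 in any C3H library, while Elane and Ngp were listed at 0 in all 3 rd10 libraries. The part of these cells in the result for Mmp9 was not tested.

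Positions bear on how the reads were counted, since some members overlap other genes (GENCODE vM21, GRCm38). Timp1, Timp3 and Timp4 each lie inside a synapsin gene on the other strand, Syn1, Syn3 and Syn2. Timp3 (chr10:86300372-86349506, plus strand) shares 1733 exon bases with Syn3, Timp4 (chr6:115241892-115252205, minus strand) shares 90 with Syn2, and Timp1 shares none with Syn1. The library kit keeps the strand, but the strand setting of the counting was not given in the sources used here, and without it reads of overlapping exons cannot be assigned. Syn3 was at 1.51 ± 0.019 FPKM in C3H and 2.14 ± 0.028 in rd1, a difference of 0.43 (adjusted p = 6.50e-06) opposite in sign to that of Timp3. Syn2 was lower in rd1 (-0.65, adjusted p = 2.14e-11) and in rd10 (-0.74, adjusted p = 1.40e-11), as Timp4 was.

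Mmp24 (chr2:155775342-155818366, plus strand) shares 637 exon bases with BC029722 on the other strand, which was at 20.5 ± 0.38 FPKM in C3H and 14.8 ± 0.68 in rd1. Timp2 (chr11:118301069-118355740, minus strand) holds Cep295nl on its own strand, with no shared exon base and at most 41 counts. Mmp2 (chr8:92827291-92853420), Mmp9 (chr2:164940780-164955850), Mmp14 (chr14:54431612-54445364) and Mmp15 (chr8:95352268-95375080), all on the plus strand, overlapped no other annotated gene, and Mmp16 (chr4:17852893-18119145, plus strand) overlapped a pseudogene that was not in the table.

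Circular RNAs, formed when a downstream splice donor joins an upstream acceptor, were also counted in these libraries. Only 2 of those in the table had both ends inside a member on its strand. One lay in Mmp16 (chr4:18011491-18011795, plus strand), with 3 junction reads in the day 13 C3H library and 0 in the other 11. The other lay in Mmp15 (chr8:95365314-95366422, plus strand), with 1 junction read in the day 29 C3H library, 2 in rd1 replicate 1 and 0 elsewhere. At this depth neither allows a comparison between groups.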

How the data were processed

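The authors removed adapter and low-quality reads, aligned to GRCm38 and counted reads per gene with HTSeq 0.11.2. The deposited table gives these counts and the authors' FPKM. From the counts, the length behind the FPKM of each member equals the union of its GENCODE vM21 exons. Circular RNA junction counts came from TopHat2 2.1.1 and CIRCexplorer on mm10, with the authors' TPM, which was not used here.

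The members, gene lists and tests were chosen with earlier results of these data known. All genes were fitted with edgeR 4.0.16 (R 4.3.3) by the quasi-likelihood test after TMM scaling and the default low-count filter, 6 libraries for each comparison with C3H and all 12 for those between models. A call required 1.5-fold or more together with an unadjusted p below 0.05. SE is the log2 fold change over the root of F. The script was tested on simulated counts. Named list genes are up to 4 of those called per list and comparison with the smallest p, and likeness is Pearson's r of log2 CPM (prior count 2). Plaur, Plg, Reck, Lrp1, Gfap, Xist and the single Mueller glia and neutrophil markers were named outside that rule after their values were seen. Other filters, scalings and thresholds, left-out libraries, a same-day control, a replicate block, DESeq2 (1.42.0), and limma (3.58.1) with a pseudocount of 1 or 0.1 on the FPKM were tried as alternatives.

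Marker lists not described above gave these ranges of summed FPKM in C3H, rd1, rd2 and rd10, in that order. Endothelial markers had 88.5 to 91.5, 83.3 to 85.8, 86.2 to 93.2 and 73.1 to 79.7. In rd10 1 of the 9 was called, where 23.9% of all tested genes were. There Kdr fell to 31.0 from 45.1 FPKM, and Flt1 was at 8.52 against 5.58 in C3H. Astrocyte markers had 21.5 to 22.4, 22.1 to 22.9, 19.1 to 21.1 and 94.5 to 103, a list that holds Gfap. Fibroblast markers had 6.66 to 7.22, 7.83 to 8.41, 5.66 to 6.46 and 7.53 to 8.16, and lens markers 2.38 to 2.91, 1.51 to 1.53, 2.49 to 2.67 and 3.14 to 3.98. Cone markers had 204 to 208, 149 to 154, 214 to 221 and 294 to 298, bipolar markers 391 to 405, 467 to 474, 386 to 402 and 324 to 329. Amacrine markers had 183 to 186, 169.0 to 169.8, 199.9 to 211 and 200.2 to 205, and ganglion cell markers 323 to 335, 248 to 252, 323 to 338 and 319 to 328.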

Additional observations from a re-analysis of the deposited data

Results flagged for a closer look

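Differences between models were tested directly in the fit of all 12 libraries, for 10 members in each of 3 comparisons. Of these differences, 10 had an adjusted p under 0.05 and at least a 1.5-fold change. Of the 19616 tested genes, 5446 did between rd10 and rd1, 3596 between rd10 and rd2, and 2954 between rd1 and rd2. Timp1 entered this fit only through the rd10 libraries, and without it 4, 1 and 2 of 9 members passed. Between rd10 and rd1 the log2 differences were 4.27 for Timp1, 3.16 for Mmp9, 1.40 for Timp3, 0.64 for Timp2 and -0.68 for Mmp16. Between rd10 and rd2 they were 5.70 for Timp1 and 1.26 for Mmp9. Between rd1 and rd2 they were 1.43 for Timp1, -0.81 for Timp3 and -1.91 for Mmp9. Mmp9 was thus called in each pair of models. Timp1 was too, but between rd1 and rd2 on 28 against 12 counts, and that call was lost with limma on log2(FPKM + 1), at 0.38. Groups of 3 libraries are too small for a test of single outlying libraries.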

How the results depend on the processing

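The count of called members was 3 (rd1), 4 (rd10) and 0 (rd2) against C3H, and 5, 2 and 3 for rd10 against rd1, rd10 against rd2 and rd1 against rd2. With an adjusted p under 0.05 and no fold threshold it was 4, 9, 2, 8, 7 and 6, in the same order, where 43.2%, 54.1%, 9.7%, 57.2%, 43.9% and 39.8% of all tested genes passed. With limma on log2(FPKM + 1) it fell to 1 in rd1 (Timp3 at -0.53 and Timp4 at -0.10 were lost) and to 3 for rd10 against rd1 (Timp2 at 0.57 and Mmp16 at -0.57 were lost), and the calls of Timp4 in rd10 (-0.12) and of Timp1 in rd1 against rd2 (0.38) were lost too. Calls over all tested genes fell in this setting as well, from 2749 to 1097 in rd1 and from 4479 to 2035 in rd10. They fell from 5644 to 2929 for rd10 against rd1 and from 3308 to 1115 for rd1 against rd2. Against only the C3H library of the same day it was 1 in rd2, Mmp9 at 0.70. Leaving out 1 library at a time gave 2 to 3 in rd1, 3 to 4 in rd10, 0 to 1 in rd2 (Mmp9 at 0.60 without rd2 replicate 3 and 0.59 without C3H replicate 1, Timp4 at -0.68 without rd2 replicate 2), 5 for rd10 against rd1, 3 to 4 for rd10 against rd2 and 3 to 4 for rd1 against rd2. Replicate numbers were taken to pair the libraries only where every same-numbered pair correlated above 0.1, which held in no comparison. In rd1 against C3H the same-numbered pairs, at 0.057 to 0.126, still lay above the others, at -0.075 to 0.023. In rd10 against C3H they were at -0.042 to -0.00085, and the others at -0.029 to 0.052. With the number as a replicate block the counts stayed at 3, 4, 0, 5, 2 and 3. The order of the group means was the same by CPM as by FPKM for 7 of the 10 members.

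Sign changes occurred only where the main fit of that comparison did not call the member. With limma at pseudocounts 1 and 0.1 the differences were 0.0192 and 0.0262 for Mmp2 and 0.0324 and 0.0378 for Mmp15 in rd1, 0.00836 and 0.0100 for Mmp16 in rd2, -0.0251 and -0.0347 for Mmp2 in rd10 against rd1, and 0.000258 and 0.000272 for Mmp15 in rd1 against rd2. Against the same-day C3H library Mmp16 in rd2 was at 0.0123. Over the fits that left out 1 library the range was -0.136 to 0.0151 for Mmp2, -0.0801 to 0.00871 for Mmp15 and -0.00243 to 0.0561 for Mmp24 in rd1, -0.164 to 0.0290 for Mmp2 in rd10, -0.676 to 0.0123 for Timp4, -0.0435 to 0.0480 for Mmp15 and -0.101 to 0.0224 for Mmp16 in rd2, and -0.262 to 0.0835 for Timp4 and -0.0798 to 0.1105 for Mmp2 in rd10 against rd1. The cause was not tested. Timp1 outside rd10 and Timp4 throughout are limited by their low counts.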
